A study of Mus musculus with 6 samples.

Results

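The genes described here encode the NF-kB pathway, measured in medullary thymic epithelial cells (mTECs), which display self-antigens to developing T cells in the thymus. They comprise 5 DNA-binding subunits (Nfkb1, Nfkb2, Rela, Relb and Rel), 3 IkB inhibitors (Nfkbia, Nfkbib and Nfkbie), the adaptor and ubiquitin ligase gene Traf6, and Map3k14, which encodes the NF-kB-inducing kinase NIK. The genes were chosen by symbol, with earlier results of these data known, and all 10 were found among the 20443 genes of the tables. Of the 10, 7 belong to the classical arm (Nfkb1, Rela, Rel, the 3 inhibitors and Traf6) and 3 to the alternative arm (Nfkb2, Relb and Map3k14). All 10 passed the filter on low values and stood among the 15720 genes tested.

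In the classical arm, receptor signals pass through Traf6 and related adaptors to a kinase complex that marks IkB proteins for destruction, which frees dimers of RelA or c-Rel with p50, the processed product of Nfkb1. In the alternative arm, receptors of the tumour necrosis factor family such as RANK, CD40 and the lymphotoxin beta receptor stabilise NIK, which leads to processing of the Nfkb2 product p100 to p52 and to nuclear p52-RelB dimers. Mice without functional RelB, NIK or Traf6 are known to lack or to malform the thymic medulla, and several IkB genes and Nfkb2 are themselves known targets of NF-kB, so that the pathway restrains itself.

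RNA sequencing was carried out on mTECs sorted by flow cytometry from C57BL/6 mice at 4 weeks of age. The 3 control libraries (Con_253, Con_261 and Con_264) came from Jmjd3 fl/fl mice, which carried the floxed alleles and no Cre. The 3 Jmjd3-deficient libraries (cKO_262, cKO_263 and cKO_265) came from Jmjd3 fl/fl-Foxn1-cre mice. Jmjd3, the product of Kdm6b, removes methyl groups from lysine 27 of histone H3, and Foxn1-cre is active in thymic epithelium as a whole and not in mTECs alone. Since every control lacked Cre, loss of Jmjd3 and presence of Cre cannot be told apart. The library numbers differ from each other, but the labels do not say in words that each library is 1 mouse, and p-values measure the spread between these libraries.

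Values are FPKM (a length-corrected read density scaled to the mapped fragments of a library) as deposited, and read numbers are unknown. RNA was amplified before library preparation, with an unknown bias by transcript length and base composition. An order of different genes by FPKM may carry that bias. The summed FPKM ran from 461152 to 543156 in the controls and from 582835 to 641060 in the deficient libraries. On the first principal component (42.8% of the variance) cKO_265 lay at 53.02 and the other 5 libraries between -22.72 and 7.42, and the Y-linked genes Kdm5d, Uty, Ddx3y and Eif2s3y were at 1.18 to 7.88 FPKM in Con_253 and at most 0.0576 FPKM elsewhere. The targeted gene Kdm6b was at 18.1 FPKM in Con_253 and 17.1 FPKM in Con_261, and the third control, Con_264, lay within the range of the deficient values (11.1, 11.6 and 8.67 FPKM), so the groups overlapped (log2 fold change -0.45, SE 0.23, limma adjusted p = 0.418); the value covers the whole gene and does not check a deletion. All 14 mTEC markers were present at 11.7 FPKM or more in every library, with Epcam, Krt5 and Cd74 among them, and their sum ran from 18187 to 20318 FPKM among controls and from 16980 to 20732 FPKM among deficient libraries. Summed over 8 markers of cortical thymic epithelial cells, controls held 634 to 885 FPKM and deficient libraries 863 to 1268 FPKM, with overlap. Of these 8 genes, 5 were higher and 3 lower in mean, and single values ran from 2.45 to 728 FPKM. In these bulk samples, fewer cells of a type and less RNA per cell cannot be told apart.

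Of the 10 NF-kB genes, 0 passed the test over all genes (limma on log2(FPKM + 1), adjusted p under 0.05), a call reached by 12 genes or 0.0763% of those tested. At an unadjusted p under 0.05 stood 3 of the 10 (Nfkbie and Nfkbia higher, Rel lower), against 14.6% of all tested genes. The groups did not overlap for 4 of the 10 (Nfkbia, Nfkbie and Traf6 higher, Nfkb1 lower), against 21.5% of all tested genes. All of these genes lay in the classical arm, which has 7 of the 10 genes, and none among the 3 genes of the alternative arm; whether the arms differ was not tested. The median log2 fold change (Jmjd3-deficient minus control) was -0.04 over the classical arm, -0.14 over the alternative arm and -0.04 over all tested genes. By role the medians were -0.14 over the 5 subunits, 0.41 over the 3 inhibitors and 0.08 over the 2 genes of kinase and adaptor. The inhibitor median is the value of Nfkbia, which was 0.01 with quantile normalization, and Nfkbib was at -0.23.

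**Figure D1:**
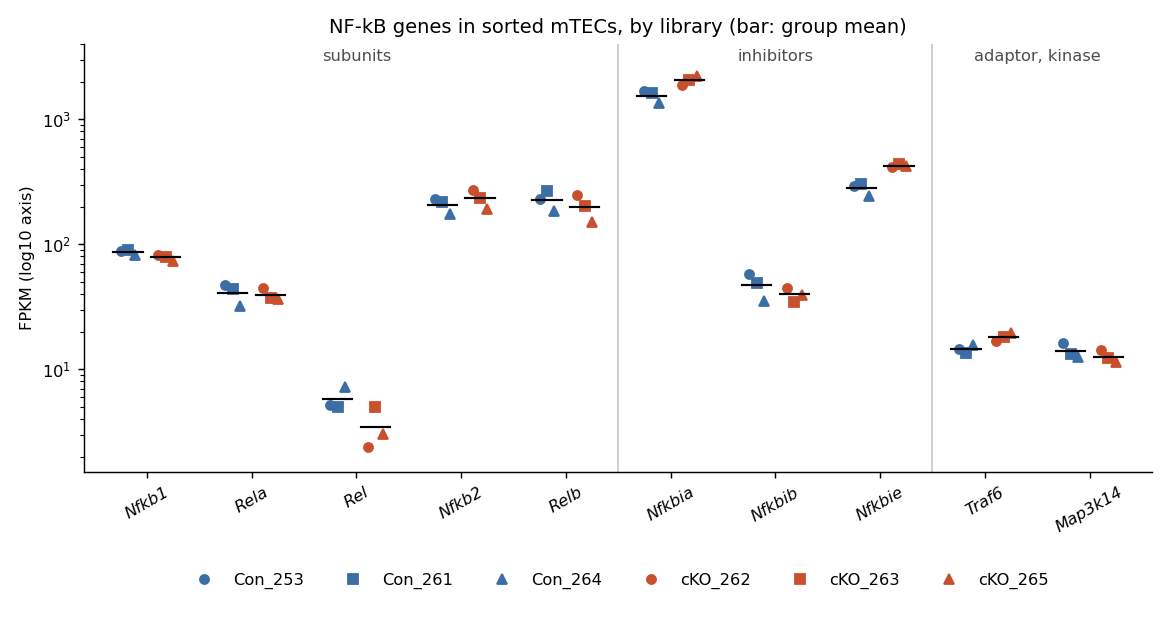
FPKM (log10 axis) of the 10 NF-kB genes in the 3 control libraries (blue) and the 3 Jmjd3-deficient libraries (orange); each symbol is 1 library and each bar a group mean. The inhibitor gene Nfkbia lies above 1300 FPKM in every library, and the subunit gene Rel below 8 FPKM.

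Control means ran from 5.81 FPKM for Rel to 1545 FPKM for Nfkbia. Among the 10 genes Nfkbia had the highest control mean, at rank 36 of all tested genes, followed by Nfkbie at rank 258, Relb at 322, Nfkb2 at 366 and Nfkb1 at 912. Nfkbib and Rela came next at ranks 1720 and 1959, Traf6 and Map3k14 at 4851 and 4994, and Rel last at 8504. By FPKM, the alternative subunit genes Relb and Nfkb2 thus stood above their classical relatives Rela and Nfkb1 in all 6 libraries. In the controls the values of 4 neighbouring pairs overlapped, namely Nfkbie with Relb, Relb with Nfkb2, Nfkbib with Rela, and Traf6 with Map3k14. In the deficient libraries only the pairs Nfkb2 with Relb and Nfkbib with Rela overlapped among neighbours. Within the control group Con_264, which had the lowest summed FPKM (461152), had the lowest value of 8 of the 10 genes and the highest of Rel and Traf6. The share of all tested genes that were lowest in Con_264 was not counted. Within the deficient group cKO_265 had the lowest value of 5 genes (Nfkb1, Rela, Nfkb2, Relb and Map3k14).

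The first subunit gene is Nfkb1 (chromosome 3 from 135584655 to 135691547, minus strand, GENCODE M21 on GRCm38, the assembly called mm10), which encodes p105 and its product p50. In the library order given above, its control values were 88.2, 89.3 and 82.4 FPKM and its deficient values 82.0, 79.3 and 74.0 FPKM; the same order is used for all genes below. The groups did not overlap, but their nearest values, 82.4 and 82.0 FPKM, almost met. The log2 fold change was -0.14 (SE 0.12, 95% interval -0.43 to 0.14) and did not pass (limma adjusted p = 0.643).

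Rela (chromosome 19 from 5637483 to 5648130, plus strand) encodes RelA or p65, the main activating subunit of the classical arm. It had control values of 46.9, 44.1 and 31.9 FPKM and deficient values of 44.6, 37.5 and 36.7 FPKM. The deficient values lay inside the range of the controls, whose lowest value was that of Con_264. Its log2 fold change was -0.04 (SE 0.18, 95% interval -0.44 to 0.37, limma adjusted p = 0.949), and its sign turned in 6 of 16 alternative settings.

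Rel (chromosome 11 from 23736847 to 23770970, minus strand) encodes c-Rel, a subunit best known from lymphocytes and myeloid cells. It had 5.23, 4.95 and 7.24 FPKM in control and 2.41, 5.01 and 3.03 FPKM in deficient libraries. The groups overlapped through cKO_263, which lay just above Con_261. With a log2 fold change of -0.63 (SE 0.25, limma unadjusted p = 0.0323, adjusted p = 0.289), it lay below all but 4.2% of the tested genes. Markers of thymocytes had a lower sum in the deficient libraries too. The sum was highest in Con_253 (98.9 FPKM), and Rel was highest in Con_264. In cKO_262 and cKO_263 the sum was 54.7 and 54.1 FPKM, and Rel stood at 2.41 and 5.01 FPKM. Summed over 13 thymocyte markers, controls held 61.9 to 98.9 FPKM and deficient libraries 46.7 to 54.7 FPKM. Of the 11 tested markers, 10 were lower in mean, 5 of them without overlap. Over all tested genes, 8597 of 15720 were lower in mean and 11.9% were lower without overlap. Endothelial markers also summed lower, to 7.17 to 7.52 FPKM in controls and 4.77 to 5.27 FPKM in deficient libraries. All 4 tested endothelial markers were lower in mean, 3 of them without overlap, and sums of fibroblast markers overlapped. Macrophage and dendritic cell markers summed to 406 to 478 FPKM and 317 to 354 FPKM (control, then deficient; 9 of 11 tested markers lower in mean), mostly through Lyz2, and B cell markers to 39.8 to 52.7 and 41.7 to 57.2 FPKM. In the same macrophage and dendritic cell list Aif1, a macrophage gene, lay the other way, with control values of 4.73, 4.28 and 3.85 FPKM and deficient values of 15.0, 16.1 and 10.1 FPKM without overlap (log2 fold change 1.46, SE 0.20, limma adjusted p = 0.0555). The pan-leukocyte gene Ptprc was above 0 in all 6 libraries, at 1.03 to 2.73 FPKM, and Fcgr1 was listed at 0 in cKO_265. The part of such cells in the value of Rel was not tested.

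Nfkb2 (chromosome 19 from 46304320 to 46312385, plus strand), the gene of p100 and p52, had control values of 229, 216 and 176 FPKM and deficient values of 273, 234 and 193 FPKM. The groups overlapped, with cKO_265 below both Con_253 and Con_261. Its log2 fold change was 0.16 (SE 0.17, 95% interval -0.23 to 0.56, limma adjusted p = 0.71), and its sign turned with quantile normalization (-0.10) and with scaling to equal summed FPKM (-0.13). The tables hold 2 rows for Nfkb2 with the same locus, which spans 22420 bases against 8066 bases for the annotated gene. These rows may thus be placed in a joined region, and how reads were shared there was not given. The larger row carried 73.5%, 80.3% and 80.9% of the FPKM of the gene in the controls and 80.9%, 82.1% and 80.6% in the deficient libraries, so that Con_253 stood apart and the other 5 libraries lay close together. Exons of Nfkb2 overlap exons of AC114539.1 and Psd on the opposite strand, and strand was not stated, so reads of these genes cannot be told apart there.

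Relb (chromosome 7 from 19606217 to 19629438, minus strand), the partner of p52 and a gene needed for the thymic medulla, had 232, 268 and 184 FPKM in control and 246, 204 and 150.1 FPKM in deficient libraries. The spread within each group was wide, and both groups covered the values between 184 and 246 FPKM. The log2 fold change was -0.20 (SE 0.21, 95% interval -0.69 to 0.29, limma adjusted p = 0.715). Without Con_253 and cKO_265 it was 0.01.

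Of the 3 inhibitor genes, Nfkbie and Nfkbia gave the largest positive differences among the 10 genes, and Nfkbib had a negative one. Nfkbie (chromosome 17 from 45555703 to 45563169, plus strand) encodes IkB-epsilon, which holds RelA and c-Rel dimers in the cytoplasm. It had control values of 290.0, 306 and 245 FPKM and deficient values of 412, 436 and 422 FPKM, and the lowest deficient value lay well above the highest control value. The means were 280.2 ± 31.8 and 423 ± 11.6 FPKM (SD, n = 3 each), a ratio of 1.51. The log2 fold change was 0.60 (SE 0.14, 95% interval 0.28 to 0.92), with an unadjusted p of 0.00227, and it did not pass over all genes (limma adjusted p = 0.135). It was positive in all 16 alternative settings, from 0.30 with scaling to equal summed FPKM to 0.68 with median centring. It passed with arrayWeights, a setting that called 19.2% of all genes.

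Nfkbia (chromosome 12 from 55489410 to 55492647, minus strand) encodes IkB-alpha, the inhibitor that NF-kB induces most directly to end its own response. It had 1674, 1614 and 1346 FPKM in control and 1866, 2062 and 2234 FPKM in deficient libraries. The groups did not overlap, and cKO_262 lay nearest to the controls. The means were 1545 ± 175 and 2054 ± 184 FPKM (SD, n = 3 each), a ratio of 1.33. The log2 fold change was 0.41 (SE 0.16, 95% interval 0.04 to 0.78, limma adjusted p = 0.289). It was 0.01 with quantile normalization and 0.11 with scaling to equal summed FPKM, a scaling that moved the median of all tested genes by -0.24. The deposited locus of Nfkbia spans 211834 bases against 3238 bases for the annotated gene, so the row may be placed in a joined region; how reads were shared there was not given.

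Nfkbib (chromosome 7 from 28758251 to 28767512, minus strand) encodes IkB-beta, a slower and more lasting inhibitor. It had control values of 58.3, 49.0 and 35.2 FPKM and deficient values of 45.1, 34.8 and 39.5 FPKM. The groups overlapped through Con_264, and the mean was lower in the deficient libraries, unlike that of the other two inhibitors (log2 fold change -0.23, SE 0.20, limma adjusted p = 0.647; -0.07 without Con_253 and -0.42 without Con_264). Exons of Nfkbib overlap those of Ccer2 and Sirt2 on the opposite strand, which adds doubt to its value.

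Traf6 (chromosome 2 from 101678429 to 101701669, plus strand), the ligase that links RANK, CD40 and Toll-like receptors to the classical kinases, had control values of 14.5, 13.5 and 15.7 FPKM and deficient values of 16.9, 18.3 and 19.6 FPKM. The groups did not overlap. This gave a log2 fold change of 0.30 (SE 0.14, 95% interval -0.02 to 0.63, limma adjusted p = 0.37), and it was 0.02 with scaling to equal summed FPKM. Map3k14 (chromosome 11 from 103219762 to 103267472, minus strand), the kinase that starts the alternative arm, had 16.1, 13.3 and 12.6 FPKM in control and 14.2, 12.3 and 11.4 FPKM in deficient libraries. Its groups overlapped (log2 fold change -0.14, SE 0.16, 95% interval -0.51 to 0.23, limma adjusted p = 0.741). An exon of 1700028N14Rik overlaps Map3k14 on the same strand.

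**Figure D2:**
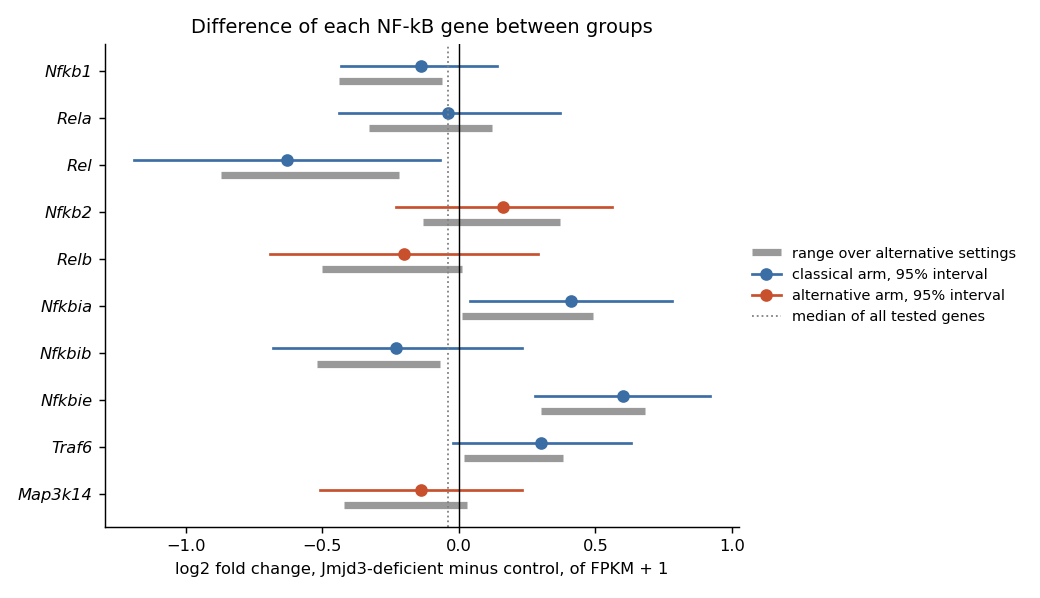
Log2 fold change of FPKM + 1 (Jmjd3-deficient minus control) of each gene with its 95% interval from limma, in blue for the classical and in orange for the alternative arm; grey bars span the alternative settings. The interval of Nfkbie (0.28 to 0.92) lies farthest above 0, and the grey bar of Nfkbia reaches down to 0.01.

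Start-site sequences are shown for the pair of inhibitor genes whose groups did not overlap and for Nfkb2, an alternative-arm gene with several starts. The RefSeq table (GRCm38.p6) held 10 windows of 300 bases, from 250 before to 50 after a start, for 8 of the 10 genes; Nfkb1 and Relb were not matched. Windows were searched on both strands for the NF-kB consensus, and capitals mark its matches, which can overlap one another. Matches were found in 6 of the 10 windows, or in 4 of the 8 genes (Nfkbia, Nfkbie, Nfkb2 and Rel). Of all 32851 windows in the table, 4.51% had one. Nfkb2 has several of the 10 windows, and those at chr19:46305445-46305744 and chr19:46305680-46305979 overlap. Both hold the same GGGACTTTCC, so the 6 windows with a match are not independent. The share of all genes with a match was not counted. The windows of Rela, Nfkbib, Traf6 and Map3k14 held no match in these 300 bases.
Nfkbia, chr12:55492598-55492897, minus strand: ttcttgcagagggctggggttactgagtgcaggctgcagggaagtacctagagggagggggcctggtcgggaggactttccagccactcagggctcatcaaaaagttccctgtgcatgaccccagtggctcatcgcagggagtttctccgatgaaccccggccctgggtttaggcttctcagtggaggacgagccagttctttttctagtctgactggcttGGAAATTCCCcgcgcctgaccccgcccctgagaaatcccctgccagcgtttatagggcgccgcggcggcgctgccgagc
Nfkbie, chr17:45555450-45555749, plus strand: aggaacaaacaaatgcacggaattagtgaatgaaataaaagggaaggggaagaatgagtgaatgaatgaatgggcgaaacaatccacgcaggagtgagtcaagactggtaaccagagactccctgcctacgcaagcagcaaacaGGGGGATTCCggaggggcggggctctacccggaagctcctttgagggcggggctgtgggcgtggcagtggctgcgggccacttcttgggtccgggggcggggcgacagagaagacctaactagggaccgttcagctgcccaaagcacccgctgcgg
Nfkb2, first start, chr19:46304487-46304786, plus strand: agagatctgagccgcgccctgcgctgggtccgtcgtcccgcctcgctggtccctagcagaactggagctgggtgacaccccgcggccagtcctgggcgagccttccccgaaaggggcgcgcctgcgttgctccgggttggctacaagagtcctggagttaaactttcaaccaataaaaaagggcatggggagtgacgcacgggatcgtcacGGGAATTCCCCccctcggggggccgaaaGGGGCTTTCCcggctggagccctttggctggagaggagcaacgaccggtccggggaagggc
Nfkb2, second start, chr19:46305445-46305744, plus strand: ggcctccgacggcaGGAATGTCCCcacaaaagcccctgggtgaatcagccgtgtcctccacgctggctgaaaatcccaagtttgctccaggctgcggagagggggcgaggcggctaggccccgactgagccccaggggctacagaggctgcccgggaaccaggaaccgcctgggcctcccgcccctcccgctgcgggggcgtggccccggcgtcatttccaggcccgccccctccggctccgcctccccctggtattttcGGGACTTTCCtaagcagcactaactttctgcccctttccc

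In Nfkbia the match begins 29 bases before the start and lies on the opposite strand, and in Nfkbie it begins 106 bases before the start. At the first start of Nfkb2 the matches begin 39, 38 and 11 bases before it. The second start of Nfkb2 holds the decamer GGGACTTTCC from 10 bases after it, a sequence found in 0.155% of all windows. The match in Rel (GGGAAATCCC, 92 bases before the start) is in a gene with a lower mean in the deficient libraries, and those in Nfkbia and Nfkbie are in genes with a higher mean. A match is a description of letters, and binding was not measured.

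Ratios of 2 genes within a library do not depend on scaling between libraries, and 8 were compared. With 3 libraries against 3, an exact permutation test (2-sided) cannot give a p below 0.1, so none can pass. Relb exceeded Nfkb2 in every control library, by ratios of 1.01, 1.24 and 1.04, and was below it in every deficient library, at 0.904, 0.869 and 0.779. Mean log2 ratios were 0.13 ± 0.16 among controls and -0.24 ± 0.11 among deficient libraries (SD, n = 3 each), a difference of -0.37 (exact permutation p = 0.1, the smallest possible; 0.267 adjusted over the 8 ratios). With the 2 rows of Nfkb2 summed, the order of the pair was thus turned in all 3 deficient libraries, although neither gene differed beyond its spread alone. The smallest gap was in Con_253, where Relb and Nfkb2 stood at 232 and 229 FPKM. The turn depends on that sum. The larger Nfkb2 row alone was at 221, 192 and 155 FPKM in the deficient libraries, against 246, 204 and 150.1 FPKM for Relb. By that row Relb stayed above Nfkb2 in cKO_262 and cKO_263. Reads of AC114539.1 and Psd cannot be told apart from those of Nfkb2 where their exons overlap.

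Nfkb2 relative to Nfkb1 was 2.60, 2.42 and 2.14 in the controls and 3.33, 2.96 and 2.60 in the deficient libraries. The groups met at Con_253 and cKO_265 to 2 decimals, and the difference in mean log2 ratio was 0.31 (exact permutation p = 0.1). Relb relative to Rela was 4.95, 6.08 and 5.75 in the controls and 5.53, 5.43 and 4.09 in the deficient libraries, with overlap (difference -0.17, exact permutation p = 0.4). Without cKO_265 the Relb to Rela difference was -0.02 (exact permutation p = 0.8).

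Among the inhibitors, Nfkbib relative to Nfkbia was 0.0348, 0.0303 and 0.0262 in the controls and 0.0242, 0.0169 and 0.0177 in the deficient libraries. These did not overlap (difference in mean log2 ratio -0.64, exact permutation p = 0.1, 0.267 adjusted over the 8 ratios). Nfkbie relative to Nfkbia ran from 0.173 to 0.190 in the controls and from 0.189 to 0.221 in the deficient libraries, with a small overlap between Con_261 and cKO_265 (difference 0.19, exact permutation p = 0.2). Nfkbia relative to Rela was 35.7, 36.6 and 42.1 in the controls and 41.9, 55.0 and 60.8 in the deficient libraries, with overlap through Con_264 and cKO_262 (difference 0.45, exact permutation p = 0.2). The kinase to adaptor ratio of Map3k14 to Traf6 ran from 0.801 to 1.11 in the controls and 0.580 to 0.840 in the deficient libraries (difference -0.47, exact permutation p = 0.2). Rel relative to Rela overlapped widely (difference -0.75, exact permutation p = 0.3).

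**Figure D3:**
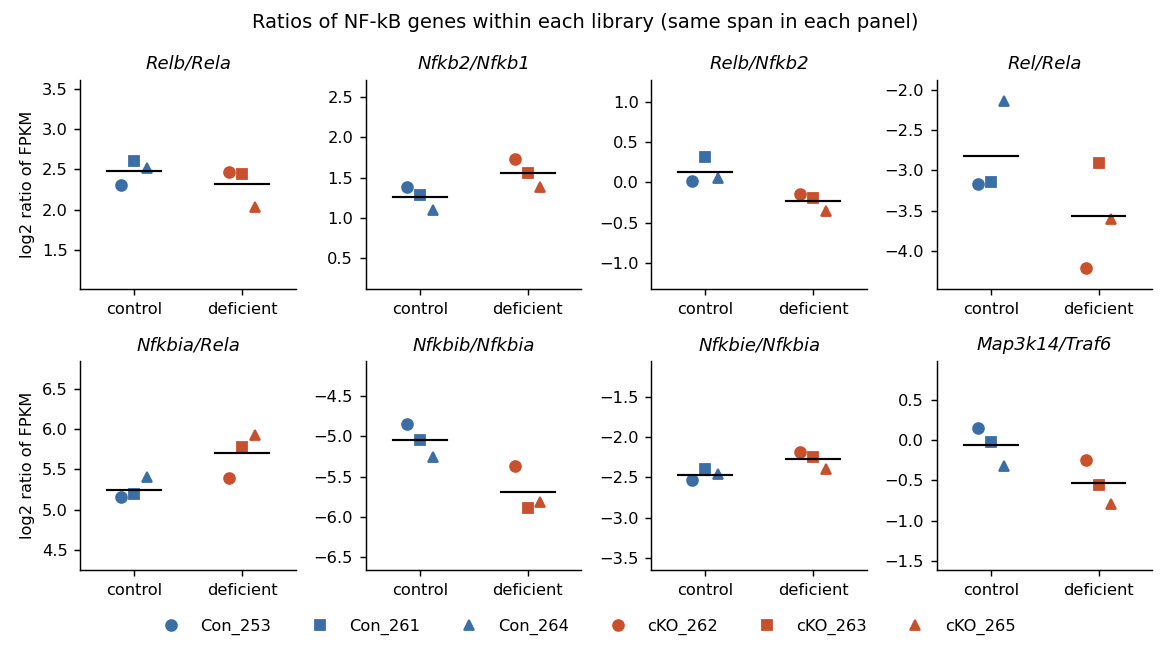
Log2 ratio of FPKM for 8 pairs of NF-kB genes in each control library (blue) and each Jmjd3-deficient library (orange), with group means as bars and the same span in each panel. With the 2 rows of Nfkb2 summed, the Relb to Nfkb2 ratio lies above 0 in the 3 controls (0.02 to 0.31). It lies below 0 in the 3 deficient libraries (-0.36 to -0.15).

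The rest of the pathway was read from 7 lists by role, which hold 98 genes, 97 of them in the tables and 96 tested. Of these, 0 passed over all genes (limma), 7 were higher and 6 lower at an unadjusted p under 0.05, and for 12 higher and 9 lower genes the groups did not overlap. All tested genes gave 6.81% higher and 7.82% lower at that unadjusted p, and 9.59% higher and 11.9% lower without overlap. The median log2 fold change over the 96 genes was -0.05.

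Among receptors (12 tested, median -0.13), Cd40, the receptor through which T cells instruct mTECs, had control values of 151, 139 and 137 FPKM and deficient values of 193, 192 and 189 FPKM. Its groups did not overlap (log2 fold change 0.43, SE 0.12, limma adjusted p = 0.19). The log2 fold change of Cd40 was 0.20 with quantile normalization and 0.13 with scaling to equal summed FPKM. The value of Cd40 is a sum of 4 rows whose shares shifted between libraries, and its highest row alone gave -0.15. Tnfrsf11a, the RANK receptor gene, averaged 32.0 ± 2.36 and 30.1 ± 4.63 FPKM (log2 fold change -0.10). The lymphotoxin beta receptor gene Ltbr had control values of 35.8, 27.6 and 21.8 FPKM and deficient values of 25.3, 20.8 and 10.1 FPKM, with overlap (log2 fold change -0.64, limma adjusted p = 0.401; -0.27 without cKO_265). Tnfrsf1a, the main receptor of tumour necrosis factor, was at -0.59 (adjusted p = 0.242).

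Ligands were low or mixed (9 tested, median -0.20, 8 of them below 0). Tnfsf11, which encodes RANK ligand, averaged 0.818 ± 0.162 and 0.381 ± 0.133 FPKM (control, then deficient) without overlap (limma adjusted p = 0.332). Cd40lg, the T-cell ligand of CD40, averaged 1.58 and 0.742 FPKM with overlap. Both ligands are made mainly by haematopoietic cells in the thymus, and the thymocyte marker sums given with Rel were lower too; the part of such cells was not tested. Lta, the lymphotoxin alpha gene, averaged 16.4 ± 4.17 and 21.9 ± 4.62 FPKM with overlap.

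The kinases that act on IkB showed small differences (16 tested with their upstream kinases, median -0.06). Ikbkb, the IKK-beta gene, averaged 52.6 ± 3.51 and 53.9 ± 0.802 FPKM (log2 fold change 0.04, 95% interval -0.25 to 0.32). Chuk, the IKK-alpha gene on which NIK acts, ran from 7.77 to 13.0 FPKM among controls, highest in Con_264, and from 6.73 to 7.85 FPKM among deficient libraries; its log2 fold change of -0.34 was -0.12 without Con_264. Ikbkg, the gene of the NEMO scaffold, was at -0.08 over 5 rows. The upstream kinase genes Map3k8 and Map3k3 were at -0.36 and -0.48 (limma adjusted p of 0.353 and 0.336).

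NIK is held low by a complex of TRAF3, TRAF2 and the cIAP proteins. Traf3 had control values of 14.8, 13.6 and 14.5 FPKM and deficient values of 15.2, 16.8 and 20.5 FPKM without overlap (log2 fold change 0.27, limma adjusted p = 0.473). Traf2 was at -0.20, and the cIAP genes Birc2 and Birc3 at 0.17 and 0.18, each with overlap. In the list of TRAF, cIAP and adaptor genes (13 tested, median 0.17), Tradd, an adaptor of the tumour necrosis factor receptor, had 38.7, 46.2 and 17.7 FPKM in control and 104, 72.3 and 52.3 FPKM in deficient libraries (log2 fold change 1.18, SE 0.36, limma adjusted p = 0.206). Traf5 was at -0.51 without overlap and the Toll-like receptor adaptor gene Myd88 at 0.36 with overlap.

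Negative regulators outside the IkB proteins lay on both sides of 0. Tnip2, an A20-binding inhibitor of NF-kB, had control values of 43.3, 42.0 and 34.8 FPKM and deficient values of 58.9, 69.9 and 65.7 FPKM, with groups well apart (log2 fold change 0.68, SE 0.15, unadjusted p = 0.00128, limma adjusted p = 0.125). Tnfaip3, the gene of A20 itself and a known NF-kB target, had control values of 38.6, 42.4 and 47.8 FPKM and deficient values of 30.3, 29.6 and 37.5 FPKM. Its groups lay the other way without overlap (log2 fold change -0.39, SE 0.15, limma adjusted p = 0.288). Usp18, an ISG15 protease, was at 0.26. Among 8 nuclear cofactor genes and other IkB relatives the median was -0.11, with Nfkbiz at -0.21 (-1.0 from its highest row alone, limma adjusted p = 0.429), Nkiras2 at -0.47 and Nfkbil1 at -0.37, and 0 had an unadjusted p under 0.05 (limma).

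Genes known as NF-kB targets (24 tested, median 0.04) held 15 values above 0 and 9 below. Il15, a cytokine that mTECs present to lymphocytes, had control values of 34.8, 37.6 and 44.3 FPKM and deficient values of 58.6, 69.4 and 74.3 FPKM. Its groups lay well apart (log2 fold change 0.78, SE 0.15, unadjusted p = 0.000834), and it did not pass over all genes (limma adjusted p = 0.118). Ccl5, a chemokine, averaged 105 ± 9.61 and 144 ± 27.3 FPKM without overlap (log2 fold change 0.44, limma adjusted p = 0.27). Its log2 fold change was 0.21 with quantile normalization and 0.15 with scaling to equal summed FPKM. Ier3, an early response gene, had control values of 35.9, 29.5 and 26.9 FPKM and deficient values of 20.9, 22.4 and 17.8 FPKM (log2 fold change -0.57, limma adjusted p = 0.188). It passed with scaling to equal summed FPKM (-0.86, limma adjusted p = 0.038) and with arrayWeights (-0.45, limma adjusted p = 0.0252). Known targets thus stood on both sides of 0, as did the inhibitors Nfkbie and Tnfaip3.

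**Figure D4:**
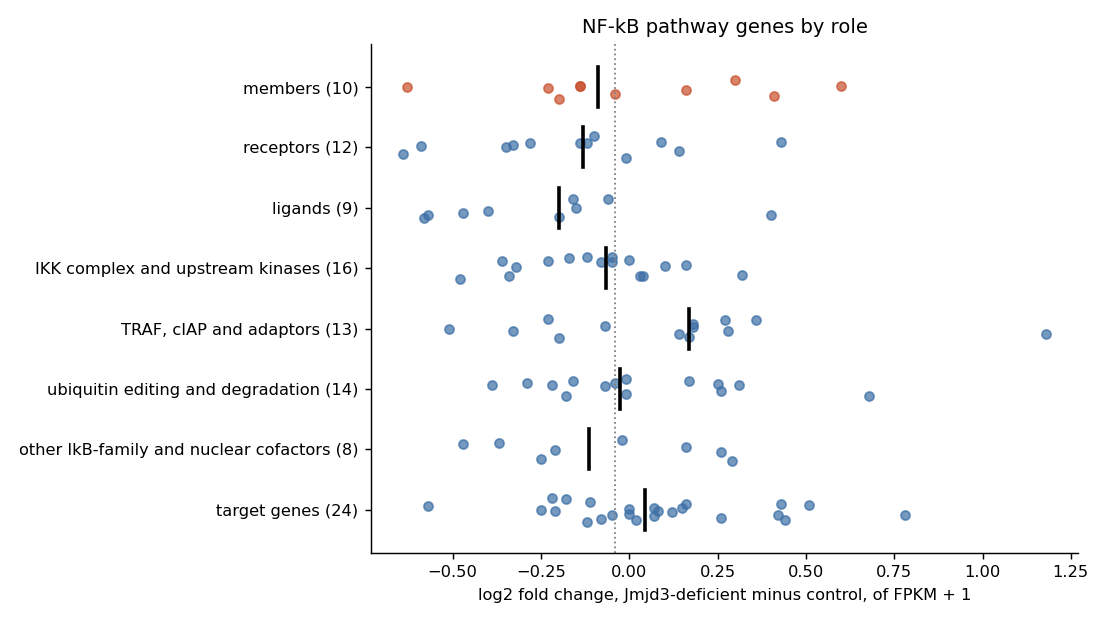
Log2 fold change of FPKM + 1 (Jmjd3-deficient minus control) of the 10 NF-kB genes and of the tested genes of 7 pathway lists; each point is 1 gene, each bar a list median and the dotted line the median of all tested genes. List medians lie between -0.20 (ligands) and 0.17 (TRAF, cIAP and adaptors), and Tradd is the rightmost point at 1.18.

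Likeness of profile was measured as the mean absolute difference, over the 6 libraries, between a gene's log2(FPKM + 1) centred on its control mean and the mean profile of an arm. The profile of the alternative arm was 0.13, 0.09 and -0.22 over the controls and 0.18, -0.04 and -0.32 over the deficient libraries, so that both groups held high and low libraries. The nearest of 15710 genes included Wdr6 (0.020) and Cltb (0.026), and 500 genes lay within 0.1. The mean profile of the classical arm was flatter, from -0.11 in Con_264 to 0.09 in Con_253. It is a mean over 7 genes that differed in both directions. Their log2 fold changes ran from -0.63 to 0.60, against -0.20 to 0.16 for the 3 genes of the alternative arm. Nearest to the classical profile were Zcchc8 (0.020), Faf2 (0.020) and Dcaf8 (0.032), with 827 genes within 0.1.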

How the data were processed

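RNA sequencing libraries of sorted mTECs (3 control and 3 Jmjd3-deficient) were used. Per the labels' protocols, RNA was amplified with a whole-transcriptome kit before library preparation, a step whose bias by transcript length and base composition is unknown. Expression was deposited by the authors as FPKM, with 1 table for each library; Bowtie2 2.2.5 and Cufflinks with mm10 are named per the submitters' processing notes, while annotation, strand, handling of shared reads and any scaling of libraries are not given in the sources used here. The tables hold no counts, so depth and counting error are unknown.

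Each table held 25025 rows. Rows of a symbol were summed after 44 rows with symbols turned into dates were left out. Genes whose mean reached 0.5 FPKM were fitted as log2(FPKM + 1) in limma 3.58.1 under R 4.3.3 (mean-variance trend, 2-sided, Benjamini-Hochberg over all 15720 genes, threshold 0.05); fold changes understate low genes. The model was tested on simulated data. Ratios within a library were compared with an exact permutation test. The members and lists were chosen with earlier results of these data known. Genes named outside the members were the 3 with the smallest p in each pathway list, 11 fixed names, the 3 nearest profiles per arm (1 of which is not reported here), Kdm6b and markers (Epcam, Krt5, Cd74, Lyz2, Ptprc, Fcgr1 and Aif1 were chosen after their values were seen). Gene positions are from GENCODE M21 and start-site sequences from RefSeq, both on GRCm38. Alternatives were other pseudocounts, filters and scalings, arrayWeights, no trend, the highest row of each symbol, and leaving out libraries; scaling to equal summed FPKM, and ratios without Con_253 and cKO_265, were added after seeing the data.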

Additional observations from a re-analysis of the deposited data

How the results depend on the processing

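The number of genes changed (12) was 3025 with arrayWeights and 236 with scaling to equal summed FPKM, and ran from 2 to 23 with 1 library left out (2 without Con_253, Con_261 or Con_264, 23 without cKO_262 and 19 without cKO_265). Of the 10 NF-kB genes 3 were called with arrayWeights (Nfkbia at 0.35, Nfkbie at 0.51 and Traf6 at 0.38, adjusted p from 0.0115 to 0.0498), and 0 in the other 15 alternatives. Nfkbie, Nfkbia and Traf6 kept a positive log2 fold change, and Nfkb1, Nfkbib and Rel a negative one, in every alternative in which they were tested (Rel was not tested at a mean of at least 5 FPKM). The median of the classical arm was 0.13 at a mean of at least 5 FPKM, where Rel is absent, 0.12 without both Con_253 and cKO_265, and -0.33 with equal summed FPKM, where that of the alternative arm was -0.42. The sign of Rela turned with median centring (0.05) and without both libraries (0.12), and with 1 library left out it ran from -0.20 to 0.07. Nfkb2 turned with quantile normalization (-0.10) and equal summed FPKM (-0.13), and Relb (0.01) and Map3k14 (0.03) turned without both libraries. The 8 ratios kept their sign in all 9 alternatives each, and the Relb to Nfkb2 difference ran from -0.42 to -0.27.

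Of the other named genes, Cd40, Tnfrsf1a, Lta, Map3k3, Myd88, Tnip2, Tnfaip3, Nkiras2, Nfkbil1, Il15, Ier3 and Kdm6b were called with arrayWeights, and Ier3 with equal summed FPKM as well. These turned sign. With the highest row of each symbol Cd40 was at -0.15 and Ikbkg at 0.26. With equal summed FPKM Usp18 was at -0.03, Ikbkb at -0.26, Traf3 at -0.01, Birc2 at -0.12, Birc3 at -0.12, Zcchc8 at -0.22, Faf2 at -0.23 and Dcaf8 at -0.20. With quantile normalization Ikbkb was at -0.08, Ikbkg at 0.02, Birc3 at -0.06 and Faf2 at -0.05, and with median centring Ikbkg at 0.01, Wdr6 at 0.05 and Cltb at 0.04. Without both Con_253 and cKO_265 Traf2 was at 0.02, Birc2 at -0.09, Wdr6 at 0.18 and Cltb at 0.13. With 1 library left out the ranges were -0.15 to 0.06 for Cltb, -0.21 to 0.00042 for Tnfrsf11a, -0.16 to 0.11 for Wdr6 and -0.01 to 0.08 for Zcchc8. The causes were not tested. No paired analysis was possible because the groups share no replicate numbers.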
